A study of Homo sapiens with 12 samples.

Results

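Osteolytic bone disease in multiple myeloma involves factors that the malignant plasma cells release, and 7 genes of that kind were followed here in MM.1S cells, a human multiple myeloma cell line, out of 17710 genes measured by array. They are DKK1 (probe set ENSG00000107984_at), CCL3 (ENSG00000277632_at), CCL3L1 (ENSG00000276085_at), CCL4 (ENSG00000275302_at), CCR1 (ENSG00000163823_at), HGF (ENSG00000019991_at) and FRZB (ENSG00000162998_at), and all 7 were found. The 7 genes were chosen for their place in myeloma bone disease, with the differences between treated and control arrays of this series already known. Their own values are therefore a description. Calls from a model fitted to all genes are listed for them later, but are not a test of these 7.

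Bone is kept in balance by osteoblasts, which build it under Wnt signals, and osteoclasts, which resorb it. DKK1 is a secreted antagonist that binds the Wnt co-receptors LRP5 and LRP6, and FRZB is a secreted decoy that binds Wnt ligands. CCL3 (MIP-1 alpha) and its copy CCL3L1 act on osteoclast precursors, in part through CCR1, CCL4 (MIP-1 beta) is a related chemokine, and HGF signals through MET.

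Untreated control cells were compared with cells given PIM447, a pan-PIM kinase inhibitor (100 nM, 24 h), with pomalidomide 200 nM and dexamethasone 5 nM together (Pd, 15 h), or with all 3 drugs at those doses (PIM-Pd, 10 h). Pomalidomide is a cereblon-binding immunomodulatory drug and dexamethasone is a synthetic glucocorticoid. Each of the 4 groups had 3 arrays, from 3 experiments that the labels number 1 to 3 as pairs. The arrays are of a single line grown without stroma or osteoclasts, treatment was sub-lethal, the exposure times differed between treatments, and no harvest time is given for the control. Drug and time therefore cannot be told apart in any comparison between treatments or with the control.

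The deposited values are log2 signals after RMA normalization, and signals of different genes are not comparable with each other. Array medians lay between 4.81 and 4.89. The interquartile range of the log2 values was lowest in PIM447 replicate 1 (2.97), PIM447 replicate 2 (2.99) and PIM-Pd replicate 1 (2.96), against 3.02 to 3.10 in the other 9 arrays. The main values of the 7 genes that moved without these 3 arrays are given both ways. TSC22D3, a glucocorticoid-induced gene read as a check of treatment, differed from control by 2.49 in Pd, 2.82 in PIM-Pd and -0.36 in PIM447 (log2). Of the 9 plasma cell markers listed for a check of the cell type, 3 could be read (CD38, SLAMF7 and IRF4), with control means of 8.46, 9.94 and 10.07. The rest were not read because names came only from the study's lists of changed genes, and their signal is not known here. These 3 were thus selected on the same arrays and do not stand for plasma cell markers in general. Markers of other cell types were limited in the same way. With Pd and PIM-Pd the means were 8.62 and 8.88 for CD38, 9.44 and 9.75 for SLAMF7, and 8.96 and 8.94 for IRF4. Of the lists for other cell types, CD3E (T cells) and CTSK (osteoclasts) could be read. The means of CTSK were 4.58 in the control, 5.30 with PIM447, 5.45 with Pd and 5.13 with PIM-Pd. Those of CD3E went the other way, at 4.6, 4.4, 4.2 and 4.1 in the same order. The part of these shifts in the results was not tested.

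The upstream sequences of DKK1 and CCL3 are shown because these genes differed from control in opposite directions under Pd. Both are the 300 bases around the start of the gene, from RefSeq (GRCh38.p14), written 5′ to 3′ on the strand of the gene. DKK1 lies on the plus strand, at chr10:52314031-52314330, and CCL3 on the minus strand, at chr17:36090094-36090393. Capitals mark matches, on either strand, to TATAAA (the TATA box) and to CTTTGA (the core of the TCF/LEF site that nuclear beta-catenin uses).
DKK1: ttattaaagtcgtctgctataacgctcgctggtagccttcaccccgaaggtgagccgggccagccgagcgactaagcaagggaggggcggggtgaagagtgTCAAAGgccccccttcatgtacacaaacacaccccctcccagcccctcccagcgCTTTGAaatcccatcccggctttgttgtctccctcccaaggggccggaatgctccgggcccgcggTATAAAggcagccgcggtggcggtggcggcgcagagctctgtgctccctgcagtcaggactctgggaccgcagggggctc
CCL3: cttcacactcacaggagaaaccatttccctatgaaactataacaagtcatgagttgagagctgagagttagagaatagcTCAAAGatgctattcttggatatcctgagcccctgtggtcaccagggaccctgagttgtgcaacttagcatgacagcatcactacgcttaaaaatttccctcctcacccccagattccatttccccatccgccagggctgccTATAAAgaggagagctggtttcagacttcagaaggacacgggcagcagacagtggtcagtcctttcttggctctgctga

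Both windows held TATAAA, at -30 in DKK1 and -29 in CCL3, counted from the first transcribed base. CTTTGA or its reverse complement TCAAAG was found at -149 and -95 in DKK1 and at -171 in CCL3. Of 35116 RefSeq windows of this length, 11.5% held TATAAA and 12.9% held CTTTGA, on either strand. AGAACA, a half-site of the glucocorticoid receptor (in 14.8% of windows), and TGACTCA, the AP-1 site (in 4.9%), were in neither sequence. None of the 4 motifs was found in the windows of CCR1, HGF and FRZB. RefSeq lists 3 start windows for CCL3, and the outermost is shown. Windows of CCL3L1 and CCL4 were not used here. The window of CCL3L3, another copy of CCL3, was 90.5% identical to that of CCL3 in a global alignment. It held TATAAA at -29 but no CTTTGA on either strand, unlike the CCL3 window.

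DKK1 showed the widest range among the 7 genes. It was near 4 on the log2 scale in every control and PIM447 array and above 6 in every array that received Pd. In the control, DKK1 signal was 4.41, 3.88 and 3.79 in replicates 1 to 3, and with PIM447 it was 4.17, 3.81 and 3.60. With Pd it was 7.19, 6.44 and 6.60, and with PIM-Pd it was 7.64, 6.64 and 7.71. The lowest Pd-treated array thus stood more than 2 log2 units above the highest array without Pd, while PIM447 and control overlapped, as did Pd and PIM-Pd. The mean was 6.57-fold the control with Pd (log2 difference 2.72, SE 0.27) and 9.87-fold with PIM-Pd (3.30, SE 0.27). With PIM447 alone the log2 difference was -0.17 (SE 0.27). These arrays hold RNA of whole cultures, so more cells with the transcript and more transcript per cell cannot be told apart.

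Within each experiment, DKK1 in Pd exceeded its own control by 2.78, 2.56 and 2.81. The corresponding differences of PIM-Pd were 3.22, 2.77 and 3.92, and those of PIM447 were -0.24, -0.07 and -0.19. PIM-Pd exceeded Pd by 0.45, 0.20 and 1.11 in the 3 experiments, a mean of 0.59 (SE 0.27), at 10 h against 15 h of exposure, and the mean was 0.43 without the 3 arrays of lowest interquartile range. The control arrays lay below the median of all probe sets on their array, and with no detection calls it was not tested whether DKK1 was transcribed there. The same holds for CCL4, described later. Among all 17710 probe sets, the DKK1 difference ranked 3 from the highest in Pd and 2 from the highest in PIM-Pd. Without the 3 arrays of lowest interquartile range, the PIM-Pd difference from control was 3.15 and that of PIM447 was -0.43.

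**Figure D1:**
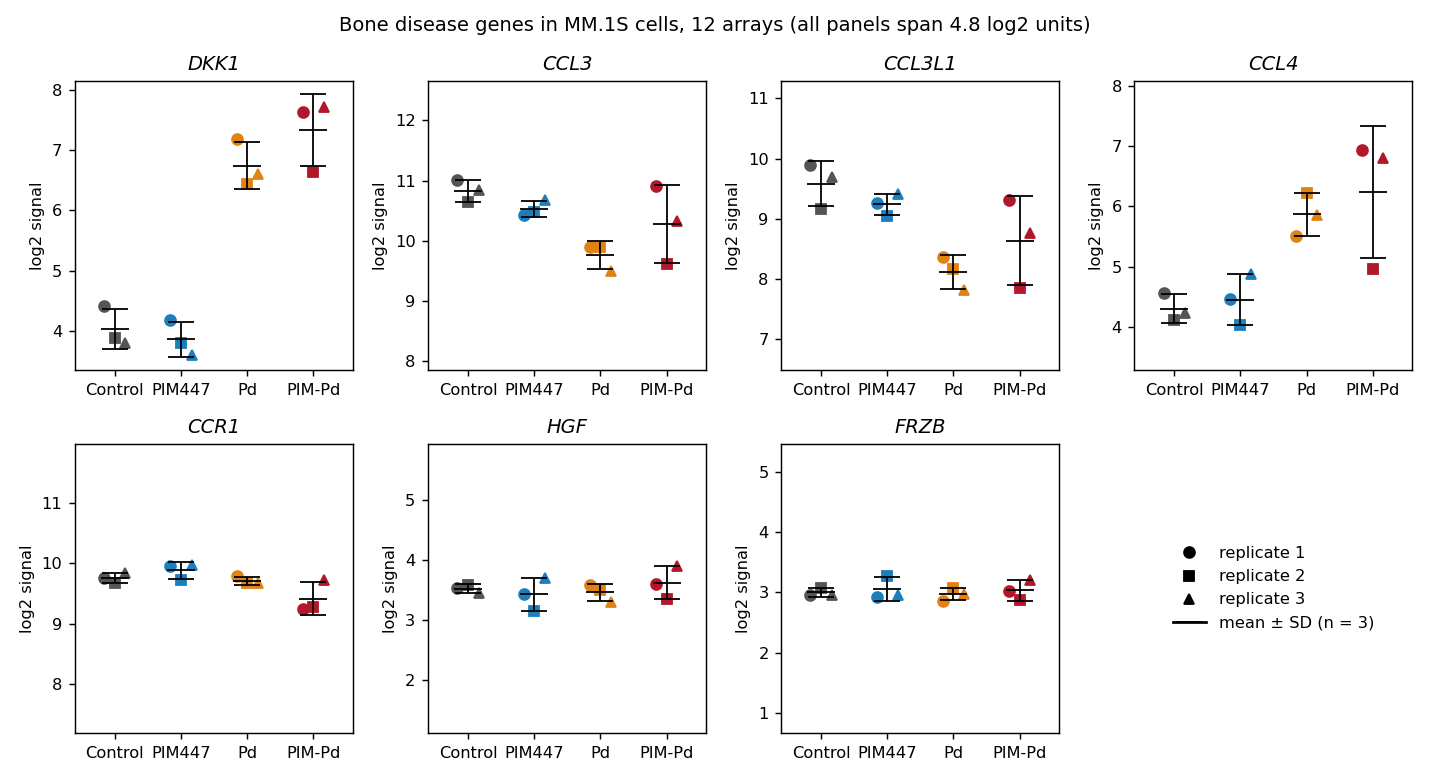
Log2 signal of the 7 genes in the 12 arrays, by group (symbols, replicates 1 to 3; bars, mean ± SD, n = 3), with the same axis length in every panel. DKK1 lies between 3.60 and 4.41 in arrays without Pd and between 6.44 and 7.71 in arrays with it, while HGF and FRZB stay within 3.15 to 3.90 and 2.86 to 3.28.

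CCL3 and CCL3L1, the chemokine genes that drive osteoclast formation, were lower with Pd. CCL3 signal was 11.01, 10.64 and 10.85 in the control and 9.90, 9.90 and 9.49 with Pd. CCL3 was 10.43, 10.48 and 10.68 with PIM447, so that PIM447 overlapped the control at its lower end. With PIM-Pd, CCL3 was 10.91, 9.61 and 10.32, which spans the range from Pd to control. The mean difference from control was -1.07 with Pd (SE 0.24), a 2.10-fold lower signal. It was -0.55 with PIM-Pd and -0.30 with PIM447 (SE 0.24 for both).

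The PIM-Pd value of CCL3 depended on single arrays. Without PIM-Pd replicate 1, which is also among the 3 arrays of lowest interquartile range, the difference from control was -0.87, and without PIM-Pd replicate 2 it was -0.22. Within experiments, CCL3 in PIM-Pd differed from its own control by -0.10, -1.04 and -0.52, and in Pd by -1.11, -0.74 and -1.35. Pd was thus lower than control in 3 of 3 experiments by at least 0.74, and PIM-Pd was lower by a more variable amount. Against Pd, PIM-Pd differed by 1.02, -0.29 and 0.83, with no common direction, and the mean of 0.52 was 0.20 without the 3 arrays.

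CCL3L1 followed the same order. Its signal was 9.89, 9.17 and 9.70 in the control, 9.26, 9.05 and 9.41 with PIM447, 8.37, 8.17 and 7.82 with Pd, and 9.31, 7.85 and 8.77 with PIM-Pd. Pd did not overlap the control, and PIM-Pd did. The mean difference from control was -1.47 with Pd (SE 0.28), a 2.77-fold lower signal, and ranked 4 from the lowest among all probe sets. It was -0.95 with PIM-Pd and -0.35 with PIM447 (SE 0.28 for both). Without PIM-Pd replicate 2 the PIM-Pd difference was -0.55, and without PIM-Pd replicate 1 it was -1.28. For PIM447, the CCL3L1 difference without the 3 arrays of lowest interquartile range was -0.18, and that of CCL3 was -0.15.

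CCL4, whose gene neighbours CCL3, differed from the control in the opposite direction. CCL4 signal was 4.57, 4.11 and 4.22 in the control and 4.45, 4.02 and 4.88 with PIM447. It was 5.52, 6.22 and 5.86 with Pd, and 6.94, 4.97 and 6.80 with PIM-Pd. All 6 arrays with Pd were above all 6 without it. The lowest of them, PIM-Pd replicate 2, was close to the highest without Pd, PIM447 replicate 3. The mean was 2.96-fold the control with Pd (log2 difference 1.57, SE 0.39) and 3.82-fold with PIM-Pd (1.94, SE 0.39), and the log2 difference was 0.15 with PIM447. Without the 3 arrays of lowest interquartile range, which leaves only replicate 3 of PIM447, that difference was 0.57.

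The spread of CCL4 among PIM-Pd arrays (SD 1.10, n = 3) was the widest of any gene and group in the set of 7. Without PIM-Pd replicate 2 the difference of PIM-Pd from control was 2.57, and without PIM-Pd replicate 1 it was 1.58. Against Pd, PIM-Pd differed by 1.42, -1.26 and 0.94 in the 3 experiments, so the mean of 0.37 (SE 0.39) had no common direction. Without PIM-Pd replicate 2 that mean was 1.00, and without PIM-Pd replicate 1 it was 0.02. PIM-Pd replicate 2 was also the lowest PIM-Pd array for DKK1, CCL3 and CCL3L1.

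**Figure D2:**
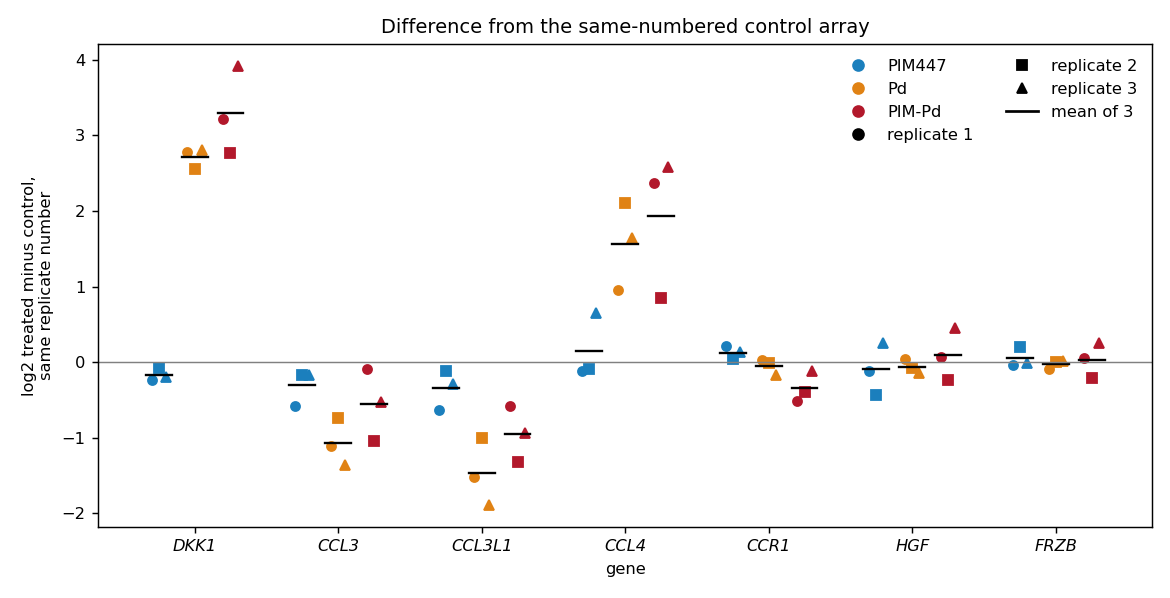
Log2 difference between each treated array and the control array of the same replicate number (symbols, replicates 1 to 3; bars, mean of 3) for the 7 genes. DKK1 and CCL4 lie above 0 in all Pd and PIM-Pd experiments, CCL3 and CCL3L1 lie below 0, and the PIM-Pd points of CCL3 run from -0.10 to -1.04.

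CCL3 and CCL4 have near-identical copies, and the probes may not separate a gene from its copy. Over the 12 arrays CCL3 and CCL3L1 correlated with Pearson's r = 0.974, and CCL4 and its copy CCL4L2 with r = 0.977. The arrays of a group share their treatment, so deviations from the group means were also compared, and these gave 0.958 and 0.946. CCL4L2 signal was 5.48, 5.29 and 5.36 in the control, 6.20, 6.17 and 6.13 with Pd and 6.98, 5.86 and 6.77 with PIM-Pd, again with no overlap between control and either treatment. CCL3 and CCL4 correlated with r = -0.274 over the 12 arrays, and with r = 0.815 over deviations from the group means. The latter value rested on PIM-Pd replicate 2, and without that array it was 0.397. Without it the values for the copies were 0.895 (CCL3 and CCL3L1) and 0.753 (CCL4 and CCL4L2).

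**Figure D3:**
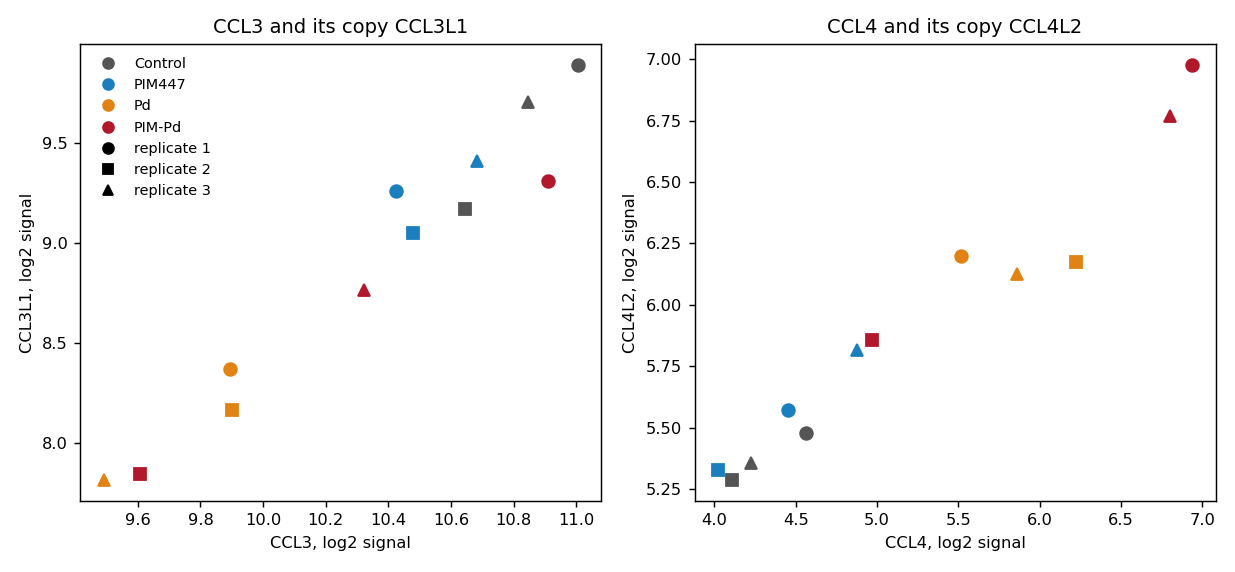
Log2 signal of CCL3 against CCL3L1 (left) and of CCL4 against CCL4L2 (right), each point an array, coloured by group and shaped by replicate. Pd arrays and PIM-Pd replicate 2 hold the lowest CCL3 and CCL3L1 values, and PIM-Pd replicates 1 and 3 hold the highest CCL4 and CCL4L2 values.

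CCR1, the receptor for CCL3 that myeloma cells themselves can carry, varied little. Its signal was 9.75, 9.68 and 9.84 in the control, 9.97, 9.72 and 9.97 with PIM447, and 9.78, 9.67 and 9.67 with Pd. With PIM-Pd it was 9.24, 9.28 and 9.73, so that replicates 1 and 2 were below every other array and replicate 3 was within the control range. The mean difference of PIM-Pd from control was -0.34 (SE 0.13), or -0.25 without the 3 arrays of lowest interquartile range, and those of Pd and PIM447 were -0.05 and 0.13. The ligand and its receptor thus did not share a pattern under Pd.

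HGF, a growth factor that hinders osteoblast differentiation in myeloma, lay between 3.15 and 3.90 in all 12 arrays, with group means of 3.52 (control), 3.43 (PIM447), 3.46 (Pd) and 3.62 (PIM-Pd). FRZB lay between 2.86 and 3.28, with group means from 2.97 to 3.05. For both genes every treatment overlapped the control, and no mean difference from control exceeded 0.10. Without the 3 arrays of lowest interquartile range the PIM447 difference of HGF was 0.18. The secreted Wnt antagonists DKK1 and FRZB thus differed in pattern, with no shift of FRZB beyond the spread of its replicates. Whether FRZB and HGF were transcribed at these signals was not tested, since the files hold no detection calls.

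Calls were made with limma at a Benjamini-Hochberg adjusted p under 0.05 over all probe sets. Against control, Pd called 5.42% of probe sets and 4 of the 7 genes (DKK1, CCL3, CCL3L1 and CCL4). PIM-Pd called 9.44% and 2 of the 7 (DKK1 and CCL4). With the replicate block CCL3L1 was added, to give 3, as it was with arrays centred on their medians, with a trended prior and without control replicate 2. Without PIM-Pd replicate 1 CCL3 and CCL3L1 were added, to give 4. Without PIM-Pd replicate 3 CCR1 was added instead. Without either Pd replicate 3, control replicate 1 or control replicate 3, Pd called 2 of the 7 (DKK1 and CCL3L1), and without Pd replicate 1, Pd replicate 2 or control replicate 2 it called 3 (all but CCL4). PIM447 called 0% of probe sets, with 1098 at an unadjusted p under 0.05, and PIM-Pd against Pd called 0.0791%, with none of the 7 in either. The 3 comparisons with control share the same control arrays. Since the 7 genes were chosen with these differences known, their calls are not a test, and nothing is read from the calls or their counts.

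DKK1 was one of the genes whose profile over the 12 arrays had close likenesses among the 8855 probe sets with a mean signal above the median. The highest Pearson correlations were with PARP8 (0.987), FAR2 (0.976), DDIT4 (0.968), CYSLTR1 (0.968) and PRKCI (0.967). DDIT4 is a stress- and glucocorticoid-induced inhibitor of mTORC1. For CCL3 they were CCL3L1 (0.974), a probe set with no paired name (ENSG00000117500_at, 0.955), CYTIP (0.912), C12orf73 (0.910) and RGS1 (0.891). For CCL4 they were CCL4L2 (0.977), ARHGAP21 (0.944), CHD9 (0.936), BMP2K (0.936) and HLA-F (0.930). These are descriptions over arrays that share 4 treatments.

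Genes of the surrounding pathways were taken from lists of 203 genes (Wnt ligands, receptors, antagonists and effectors, chemokines and their receptors, osteoclast and osteoblast regulators, and the HGF-MET axis). Of these, 23 could be given a probe set, because the only pairing of probe sets with gene names used here is that in the study's own lists of changed genes. The 23 were thus selected on these same arrays, and their calls are not independent evidence. Pd called 14 of the 23 (10 higher and 4 lower than control) and PIM-Pd called 17 (10 higher and 7 lower), with medians of 0.34 and 0.16 against -0.01 and 0.01 over all probe sets. Over all probe sets 5.42% and 9.44% were called, and since the 23 were taken from lists of changed genes, nothing is read from the difference. Without the 3 arrays of lowest interquartile range PIM-Pd called 15 of the 23, all but WNT10A and PYGO1 of the 17. For Pd the count was 5 without Pd replicate 3, 6 without control replicate 1 or control replicate 3, 8 without Pd replicate 1, and 9 without Pd replicate 2. LRP5, LRP6, MET and the osteoclast ligand TNFSF11 with its decoy TNFRSF11B were not analysed here.

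On the Wnt side, WLS, the carrier that brings Wnt ligands to the cell surface, rose with both Pd and PIM-Pd. Its signal was 5.72, 5.37 and 5.73 in the control, 7.48, 7.37 and 7.79 with Pd, and 7.55, 6.80 and 7.41 with PIM-Pd. The limma differences were 1.94 (SE 0.19, adjusted p = 4.42e-05) and 1.65 (SE 0.19, adjusted p = 0.000109). FZD4, a Wnt receptor, rose by 1.18 with PIM-Pd (SE 0.18, limma adjusted p = 0.000796) and by 0.65 with Pd (adjusted p = 0.0486). Its means were 3.98 in the control, 4.63 with Pd and 5.16 with PIM-Pd. All control and Pd arrays lay below their array medians, and whether FZD4 was transcribed there was not tested. Genes of the same lists also fell, and these are named after their values were seen. PORCN, the enzyme that acylates Wnt ligands, fell by 0.68 with Pd (limma adjusted p = 0.00962), FZD3 by 0.39 with Pd (adjusted p = 0.0361) and WNT10A by 0.37 with PIM-Pd (adjusted p = 0.0305). ROR2, a Wnt receptor kinase, rose by 0.74 with Pd and 0.78 with PIM-Pd. Of 27 effectors and targets listed, 5 had a probe set, each because the study's lists of changed genes name it. PIM-Pd called 4 of these 5 lower, where 9.44% of all probe sets were called in either direction. Nothing is read from that count, and all 5 are likewise named after their values were seen. LEF1, the transcription factor that carries the Wnt signal, fell by 0.65 with PIM-Pd (limma adjusted p = 0.009). With Pd the LEF1 difference was -0.14 (limma adjusted p = 0.741). CCND1, which encodes cyclin D1, fell by 0.62 with PIM-Pd and by 0.70 with Pd. Its means were 5.1 in the control, 4.4 with Pd and 4.5 with PIM-Pd, and the treated arrays lay below their array medians. NKD2 and PYGO1 fell by 0.62 and 0.52 with PIM-Pd. PYGO1 means were 4.7 in the control and 4.2 with PIM-Pd. With no detection calls, it was not tested whether CCND1 and PYGO1 were transcribed at these signals. For CTNNB1, which encodes beta-catenin, the difference was 0.12 with PIM-Pd and 0.35 with Pd, and neither was called.

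Among the other chemokines, CCL5, which like CCL3 binds CCR1, rose with PIM-Pd. Its signal was 7.38, 6.80 and 7.58 in the control, 7.57, 7.71 and 7.52 with Pd and 8.62, 7.78 and 8.87 with PIM-Pd, and the difference of PIM-Pd from control was 1.17 (SE 0.28, limma adjusted p = 0.0148). CCL4L2 rose by 1.16 with PIM-Pd (adjusted p = 0.00342) and by 0.79 with Pd (adjusted p = 0.0474). CXCL10, an interferon-induced chemokine, fell by 1.21 with Pd (adjusted p = 0.0177) and by 1.50 with PIM-Pd (adjusted p = 0.00298). Its control arrays were widely spread, at 5.64, 4.47 and 5.14, and every Pd and PIM-Pd array was below them, at 3.96 or less. Whether CXCL10 was transcribed at the lower signals was not tested.

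Of 21 chemokine receptors listed, 4 had a probe set, each because the study's lists of changed genes name it. These 4 were called with Pd, where 5.42% of all probe sets were, and nothing is read from that count. CCR2, the receptor for CCL2, rose by 1.15 with Pd (SE 0.17, limma adjusted p = 0.000698) and by 1.43 with PIM-Pd (adjusted p = 0.000101). CXCR4, which holds plasma cells in the marrow, rose by 0.77 and 1.07 (adjusted p = 0.00822 and 0.00059). The genes that follow were also named after their values were seen. XCR1 rose by 0.74 with Pd and 0.76 with PIM-Pd. CX3CR1, the fractalkine receptor, rose by 0.99 with Pd, and its difference from control was 0.19 with PIM-Pd. GAB1, a docking protein of MET, rose by 0.57 with Pd and 0.76 with PIM-Pd. Of the bone regulators, TNFSF13B (BAFF) rose by 0.64 and VEGFA fell by 0.69 with PIM-Pd, and neither was called with Pd. TNFSF13B means were 3.26 in the control and 3.90 with PIM-Pd, and every array lay below its median of all probe sets. With no detection calls, it was not tested whether TNFSF13B was transcribed at these signals. No gene of the 23 was called with PIM447 or between PIM-Pd and Pd. In these comparisons 0% and 0.0791% of all probe sets were called, so nothing is read from that about the 23 genes.

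**Figure D4:**
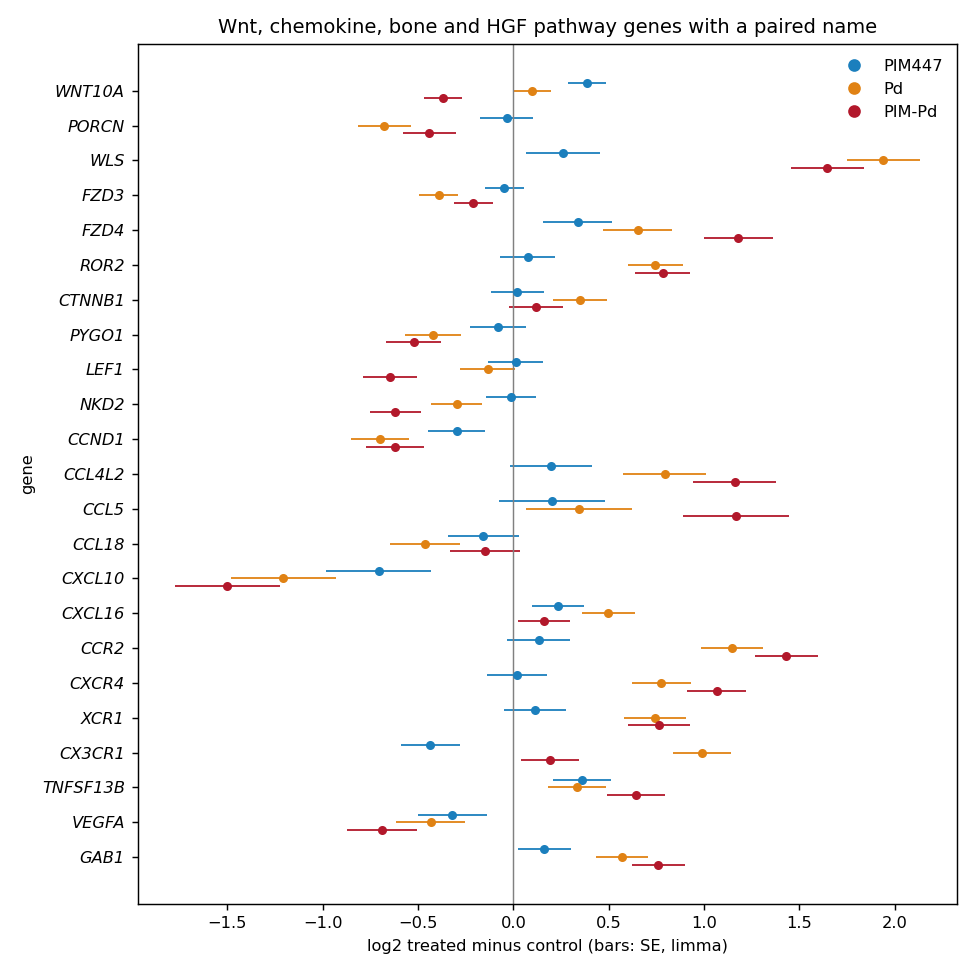
Log2 differences from control (points; bars, limma SE) of the 23 pathway genes with a paired name, for PIM447, Pd and PIM-Pd. WLS and CCR2 lie farthest to the right with Pd, CXCL10 lies farthest to the left, and the PIM447 points lie between -0.71 and 0.38.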

How the data were processed

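RNA of 12 MM.1S cultures was hybridised to Clariom S human arrays. The authors normalized the arrays by RMA in oligo 1.44.0 under R 3.5.0 with a custom BrainArray Ensembl gene definition, and deposited log2 values for 17710 probe sets, 1 per gene. Array number limits the precision. RMA compresses low signals, and the genome build is not given in the sources used here.

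The values were used as deposited. Linear models were fitted with limma 3.58.1 in R 4.3.3 over all 12 arrays and 4 groups, without a block (the methods name SAM, which was not run), and p-values were adjusted by Benjamini-Hochberg over all 17710 probe sets (threshold 0.05). The SE is that of the moderated fit. The fit was tested on simulated data.

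The 7 genes and the gene lists were chosen with earlier results of these data known. Named genes were the 7, their partners, list genes called with a log2 difference of at least 1, and the 5 probe sets most like each gene whose group means spanned at least 1. Other list genes in the text were named after their values were seen. The supplied gene table pairs no Ensembl identifiers, so names of 1905 probe sets came from the study's supplementary lists. The planned low-signal limit, based on olfactory receptor genes, could not be applied. The median of the mean signals replaced it, after the data were seen.

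The labels call the replicate numbers pairs, and the 3 experiments are independent. Deviations from group means of same-numbered arrays correlated with a median r of 0.0966 (from -0.101 to 0.303, 18 pairs), against -0.0443 for differently numbered arrays. Deviations from a group mean cancel over the arrays of the group, so the latter value is not an independent baseline for the former. The p-values of the main fit rest on the spread of arrays within groups, pooled over the 4 groups and moderated over all probe sets. They do not measure the spread of the paired differences between experiments.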

Additional observations from a re-analysis of the deposited data

How the results depend on the processing

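With 3 arrays a group, counts of called genes depended on single arrays. The count for Pd against control was 960 (616 higher and 344 lower), and when leaving out 1 array between 497 (without Pd replicate 3) and 720. That for PIM-Pd was 1671 (782 higher and 889 lower), and between 1096 (without control replicate 3) and 1435. That for PIM-Pd against Pd was 14 (between 2, without Pd replicate 3, and 15). For the 23 pathway genes with Pd it was 14 (between 5 and 10). With the replicate block the counts were 0, 1181, 1934 and 11, and the paired fit changed no call among the 7 genes other than that of CCL3L1. Requiring a fold of at least 2 as well left 191 genes for Pd, 255 for PIM-Pd and 1 for PIM-Pd against Pd. For PIM-Pd against Pd a second quantile normalization gave 8, the 2 groups alone 1, and a trended prior 26, with 1 of the 23 pathway genes. Without the 3 arrays of lowest interquartile range, chosen after seeing the data, it was 3, and HGF in PIM447 differed from control by 0.18 rather than -0.09. CCL4 lay between 1.58 and 2.57 above control in PIM-Pd, and between 0.0171 and 1.00 above Pd, when leaving out 1 array. The cause of these changes was not tested. In this balanced design neither the block nor a fit of the 2 groups alone can change a mean difference. Of the other alternatives for the 7 genes, 242 moved a difference by less than the spread between replicates (the residual SD of the gene). The other 3 moved it further. That limit is wide for leaving out 1 of 3 arrays, so nothing is read from the count. The 242 include the CCL4 difference of PIM-Pd from Pd, at 0.0171 rather than 0.37 without PIM-Pd replicate 1. They also include the DKK1 difference of PIM447 from control, at 0.02 rather than -0.17 without control replicate 1. The planned olfactory receptor filter was not run.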
